A study of Mus musculus with 22 samples.

Results

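The 10 genes followed here belong to the actin machinery of dendritic spines. They were measured in RNA pulled down with tagged ribosomes, and in the supernatants left by that pulldown, from the CA1 field of the mouse hippocampus. They were taken by gene symbol (Ddn, Ppp1r9a, Ppp1r9b, Baiap2, Pfn1, Pfn2, Mical2, Limk1, Cfl1 and Actb), and all 10 have a row among the 29848 genes of both deposited tables. The set was selected on the FPKM of these same dendrite and soma immunoprecipitates, so that contrast is described for the members and not tested. All animals were Camk2a-tTA/tetO-EGFP-L10a double transgenics on a C57BL/6 background. In them a transactivator under the Camk2a promoter, active in forebrain excitatory neurons, switches on a GFP-tagged large-subunit ribosomal protein, and the antibody HtzGFP-19C8 pulls tagged ribosomes out of dissected tissue. The groups were fear conditioned dendrite, home cage dendrite, fear conditioned soma and home cage soma immunoprecipitates (2 libraries each), and supernatants of fear conditioned dendrite, home cage dendrite and fear conditioned soma dissections (1 library each). Each of the 11 libraries was sequenced 2 times, once with paired ends and once with single ends, and its runs count as 1 replicate. Nothing in the labels says whether libraries came from separate or pooled animals, whether dendrite and soma libraries of 1 name came from the same animals, or how old the animals were, so a p-value here may reflect no more than technical spread between preparations.

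Dendritic spines are built on filaments of actin that turn over within minutes and are remodelled when a synapse is strengthened. Profilins load actin monomers for growth at the filament end, cofilin severs and disassembles filaments, and LIM kinase switches cofilin off by phosphorylating it. Scaffolds such as spinophilin, neurabin and IRSp53 hold these enzymes and protein phosphatase 1 at the postsynaptic density. Some mRNAs of spine proteins are carried into dendrites and translated there, and short elements in their 3′ untranslated region (3′ UTR) are known to bind the proteins that carry or silence them.

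The beta-actin zipcode, the Pumilio motif and the cytoplasmic polyadenylation element were searched on the sense strand of the members' 3′ UTRs in GENCODE M21 transcripts (GRCm38) that have the deposited coding length. The first is the zipcode of the beta-actin mRNA, known from chicken fibroblasts and from neurons to be bound by the zipcode-binding protein that brings this mRNA to the cell edge. It was searched as CGGACT, then 10 to 25 bases of any kind, then ACACCC. These letters occur in 5 of 21105 mouse 3′ UTRs (0.0237%) and in 1 member, Actb. They were taken from the beta-actin zipcode itself, so the match in Actb was fixed in advance and is no result about the members. The site starts at base 2 after the Actb stop codon, at chr5:142903767-142903796 on the minus strand, which places it in the part of the transcript that the authors counted with the coding sequence. It is shown because Actb is the textbook case of a localized mRNA, with its left and right blocks in capitals.
Actb zipcode: CGGACTgttactgagctgcgttttACACCC

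The second element is the Pumilio motif TGTANATA, bound by translational repressors of the Pumilio family, and the third the cytoplasmic polyadenylation element TTTTAT, bound by CPEB proteins that control translation at synapses; neither overlaps the zipcode letters. Pumilio letters occur in Ddn, once at chr15:98803833-98803856 on the minus strand and in Ppp1r9b at chr11:95006586-95006609 and chr11:95006801-95006824 on the plus strand. Ppp1r9a, which had more signal in soma, has 2 such matches in a 3′ UTR of 5909 bases, and Cfl1 and Actb have none. Among all 3′ UTRs of 0.8 to 1.25 times the length, 27.7% hold the motif for Ddn, 28.4% for Ppp1r9b and 67.3% for Ppp1r9a. TTTTAT occurs 4 times in Ppp1r9a, 2 times in Pfn2 and 1 time in Baiap2, where 97.1%, 63.1% and 25.7% of 3′ UTRs of like length hold it. The other members hold neither. For Mical2 only a 3′ UTR of 36 bases was searched, and its other models were not. Of 3′ UTRs of that length, 1.37% hold TTTTAT and 0% the Pumilio motif, so absence there says little. The Cfl1 3′ UTR searched has 1708 bases, against 541 in the deposited model. These are matches of letters only, shown with the motif in capitals; of the 6 matches in Ppp1r9a, whose 3′ UTR is the longest, 1 Pumilio match is given.
Ddn Pumilio motif: tgaggtaaTGTATATAaggcgtct
Ppp1r9b Pumilio motif 1: gagtccccTGTAAATAgaccatgc
Ppp1r9b Pumilio motif 2: cccgtctcTGTATATAatatatat
Ppp1r9a Pumilio motif: aaaatgaaTGTATATAttggaaat
Pfn2 polyadenylation element 1: aggaccaatTTTTATttgcagctt
Pfn2 polyadenylation element 2: agcttaggtTTTTATatgaagttg
Baiap2 polyadenylation element: tttaaacttTTTTATctcacgtgt

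Values are FPKM (fragments per kilobase of transcript part and per M mapped) divided by a library factor, called scaled FPKM, of the coding part of the paired-end run unless stated. FPKM are per length, but signal was uneven along a transcript, so an order of genes here holds for the coding part only. Depth, estimated from the lowest FPKM steps, was 5.61 to 35.4 M fragments with paired ends and 0.524 to 10.7 M reads with single ends. Home cage soma immunoprecipitate 2 had 73.96% of its summed FPKM in Rpsa. Its library factor was 0.211 in the paired-end coding part, beside 0.508 to 2.22 in the others, so scaling raises its FPKM most. Replicate immunoprecipitates of a group shared a Pearson's r of 0.049 to 0.412 across genes, which are not independent replicates. Of the 6 markers of CA1 pyramidal neurons, Camk2a was above 0 in every library. Nrgn was listed at 0 in 3 and Neurod6 in 2 of the 4 dendrite immunoprecipitates, and Nrgn also in home cage soma 1. Between 2 and 6 of these markers were above 0 in dendrite and 4 to 6 in soma immunoprecipitates. Their sums were 67.2 to 533 in dendrite and 28.2 to 128 in soma. Summed astrocyte markers (6 to 10 of 10 genes above 0 in dendrite, 5 to 9 in soma) were at 86.7 to 225 in dendrite and 2.40 to 55.9 in soma immunoprecipitates, with Aldh1l1 listed at 0 in 3 of 4 libraries at either site. Summed oligodendrocyte markers were at 5.77 to 59.1 in dendrite and 0.955 to 63.3 in soma immunoprecipitates. The part of these glia in the members' values was not tested. In these bulk dissections, fewer cells of a type and less RNA per cell cannot be told apart.

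Dendrin and spinophilin were the members with the clearest dendritic excess. Ddn, which encodes the proline-rich postsynaptic protein dendrin (mm9 chr15:98634213-98638356, minus strand, 1 transcript model), was at 4.35 and 17.9 in fear conditioned and 4.78 and 40.1 in home cage dendrite immunoprecipitates, against 1.83 and 0.627 in fear conditioned and 1.71 and 0.810 in home cage soma. Each dendrite library lay above each soma library. The means were 16.8 ± 16.8 and 1.24 ± 0.613 (SD, n = 4 each). The thinnest dendrite value, in home cage dendrite 1, rests on about 62.7 fragments and the thinnest soma value, in home cage soma 2, on about 6.00, estimated from FPKM, length and depth.

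Ppp1r9b encodes spinophilin, which targets protein phosphatase 1 to spines and binds filaments (mm9 chr11:94852526-94868212, plus strand). In the coding part it had the highest mean level of all members in dendrite. It was at 15.2 and 182 in fear conditioned and 108 and 215 in home cage libraries. In soma it was at 15.6 and 7.02 in fear conditioned and 2.32 and 20.2 in home cage libraries. Fear conditioned dendrite 1 lay within the soma range, and the other 3 dendrite libraries were above every soma library. The means were 130 ± 88.8 in dendrite and 11.3 ± 8.09 in soma (SD, n = 4 each).

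Its paralogue Ppp1r9a, neurabin (mm9 chr6:4853320-5115661, plus strand), ran the other way. It was at 0.666 and 0.0174 in fear conditioned and 0 and 0.0760 in home cage dendrite libraries. In soma it was at 4.13 and 18.8 in fear conditioned and 12.9 and 0 in home cage libraries. The groups overlapped only through home cage soma 2, the library dominated by Rpsa, where Ppp1r9a was listed at 0. Without it, Ppp1r9a, Ddn, Pfn1 and Mical2 did not overlap between dendrite and soma. Leaving it out also raised the genes without overlap from 113 of 2922 to 313 of 3172 (105 higher and 208 lower in dendrite). The members were chosen with this contrast in view, so nothing is read from that count. Baiap2 encodes IRSp53, a scaffold that bends the cell membrane (mm9 chr11:119804406-119868096). It was low throughout, listed at 0 in 3 of 4 dendrite and 2 of 4 soma immunoprecipitates, with 0.277 as its highest dendrite value and 4.74 as its highest soma value.

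**Figure D1:**
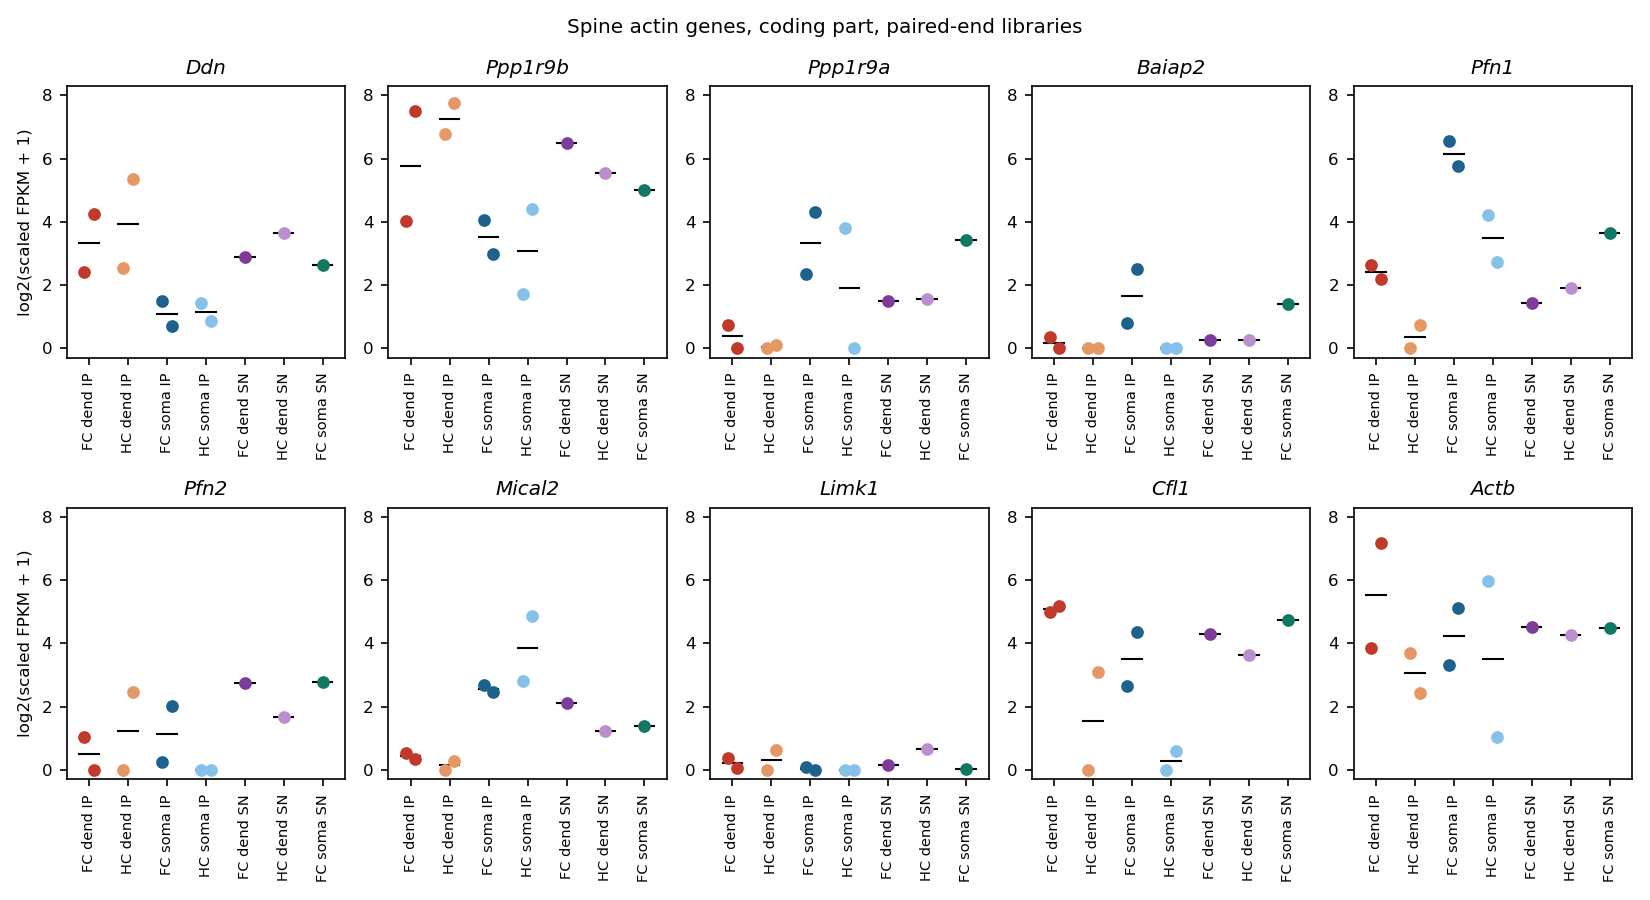
Each panel plots 1 gene, with log2(scaled FPKM + 1) of the coding part in the paired-end run on the vertical axis and groups on the horizontal axis (FC, fear conditioned; HC, home cage; dend, dendrite; IP, immunoprecipitate; SN, supernatant); points are libraries and bars group means. Ddn and Ppp1r9b stand high in dendrite immunoprecipitates, Pfn1 and Mical2 in soma immunoprecipitates, and Baiap2 and Limk1 stay near 0.

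The profilins differed from each other. Pfn1 (mm9 chr11:70465349-70468152, minus strand), the profilin found in most tissues, was at 5.21 and 3.62 in fear conditioned and 0 and 0.679 in home cage dendrite libraries, against 93.9 and 53.1 in fear conditioned and 17.8 and 5.67 in home cage soma. No dendrite library reached the lowest soma library, and the means were 2.38 ± 2.46 and 42.6 ± 39.7 (SD, n = 4 each). The gap between the highest dendrite and the lowest soma value was small, and the lowest soma value rests on about 13.6 fragments. Pfn2, the profilin typical of neurons (mm9 chr3:57645817-57651679, minus strand), was at 1.04, 0, 0 and 4.53 in dendrite, and soma libraries held 0.198, 3.11, 0 and 0, with overlap.

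Mical2 encodes an enzyme that oxidizes actin and so takes filaments apart (mm9 chr7:119369350-119497489, plus strand). It was at 0.452 and 0.283 in fear conditioned and 0 and 0.222 in home cage dendrite libraries, against 5.38 and 4.52 in fear conditioned and 6.05 and 28.3 in home cage soma. Every soma library exceeded every dendrite library, with means of 0.239 ± 0.187 in dendrite and 11.1 ± 11.5 in soma (SD, n = 4 each). Limk1, the LIM kinase, reached at most 0.548 in dendrite and 0.0606 in soma, and was listed at 0 in 1 dendrite and 3 soma libraries.

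Cfl1, the cofilin of non-muscle cells (mm9 chr19:5490455-5494031, plus strand), was at 31.1 and 35.1 in fear conditioned and 0 and 7.58 in home cage dendrite immunoprecipitates. In soma it was at 5.27 and 19.7 in fear conditioned and 0 and 0.514 in home cage libraries. Actb, the actin that forms most of the filaments in spines together with the gamma form (mm9 chr5:143664795-143668403, minus strand), was at 13.6, 144, 12.1 and 4.43 in dendrite. In soma Actb was at 9.04, 33.7, 61.7 and 1.04. Both genes overlapped between dendrite and soma. Both also share sequence with other genes: 14.2% of the 50-base words of the Actb transcript and 9.11% of those of Cfl1 occur in annotated transcripts of other genes. The other members share at most 0.105%, so the values of Actb and Cfl1 are less certain. The Cfl1 transcript searched has a 3′ UTR of 1708 bases, against 541 in the deposited model. Its share for the counted sequence may therefore differ.

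Of the 8 members that averaged 1 scaled FPKM or more over the immunoprecipitates, 1 (Ddn) lay higher in every dendrite library, beside 1.88% of 2922 genes, and 2 (Pfn1, Mical2) lay lower, beside 1.98%; the members were chosen with this contrast in view, so nothing is read from these counts. All genes together had a median log2 difference of -0.29 on the scaled and 0.12 on the deposited values. On the deposited scale Ppp1r9b also separated, with dendrite higher in every library, and Pfn1 no longer did. In order of median scaled FPKM of the coding part in dendrite, Ppp1r9b (145) stood above Cfl1 (19.3), Actb (12.9), Ddn (11.3) and Pfn1 (2.15). The other members were under 1. Neighbours in that order overlapped. The rest of the 3′ UTR gave another order, with Ppp1r9b (67.2), Ddn (65.7), Actb (55.4) and Cfl1 (25.8) highest. In soma the coding-part order was Pfn1 (35.4), Actb (21.4), Ppp1r9b (11.3), Ppp1r9a (8.54), Mical2 (5.71), Cfl1 (2.89) and Ddn (1.26), and neighbours in it overlapped.

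The supernatants, which were also in view when the members were chosen, give 2 dendrite samples against 1 soma sample and are described without a test. The dendrite supernatants held Ddn at 6.40 and 11.5, and the soma supernatant at 5.23. Ppp1r9b reached 90.2 and 45.6 in the dendrite supernatants, against 31.4 in soma. Both dendrite values were thus above the soma value for these 2 of 8 members, beside 33% of 2938 genes. Both were below it for 4 of 8 (Ppp1r9a, Pfn1, Pfn2 and Cfl1), beside 38.5%. Ppp1r9a had 1.83 and 1.96 in dendrite, against 9.73 in soma. Pfn1 had 1.73 and 2.75 in dendrite, against 11.7 in soma. Mical2, with 3.35 and 1.34 in dendrite and 1.65 in soma, and Actb, with 22.2 and 18.1 against 21.3, were split. These shares are close to those of all genes. The dissections also differed in glia here, with summed astrocyte markers of 267 and 215 in dendrite and 19.8 in soma supernatants; their part in the values was not tested.

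The single-end run carries the same library names, and the far part of the 3′ UTR was read in the same runs as the coding part. Neither adds replicates. The 2 runs of a name could differ widely. For Ppp1r9a in fear conditioned soma 1 and 2, deposited coding FPKM was 6.03 and 39.7 paired-end but 51.9 and 6.35 single-end. Ddn had a higher dendrite mean in all 4 views, with log2 differences of 2.51 and 2.48 in the coding part and 2.69 and 2.40 in the far 3′ UTR (paired-end and single-end). The Ddn groups overlapped in each view other than the paired-end coding part: in the far 3′ UTR, fear conditioned soma 2 (51.3 paired-end) exceeded fear conditioned dendrite 1 (28.1). In the single-end coding part, however, Ddn was listed at 0 in fear conditioned dendrite 1, where the paired-end run held about 499 fragments. Ppp1r9b had 3.22 and 0.75 in the coding part, and 3.62 and 2.81 in the far 3′ UTR. There each dendrite library exceeded each soma library in both runs, with 21.3 to 138 in dendrite and 1.67 to 12.1 in soma for paired ends and 29.7 to 70.1 in dendrite and 1.19 to 16.7 in soma for single ends. In the single-end coding part, home cage soma 2 was at 96.2, above all 4 dendrite libraries. That holds on scaled values only, with a factor of 0.251 for this library and a deposited FPKM of 24.1. The deposited dendrite values were 5.52 and 99.5 in fear conditioned and 47.8 and 93.9 in home cage libraries.

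Ppp1r9a kept a negative difference in all 4 views, of -2.40, -1.91, -1.36 and -1.04 in the same order. Mical2 gave -2.91 and -2.23 in the coding part. Its model with the longest coding sequence has a 3′ UTR of 39 bases, all of it counted with the coding part, so the far-part values of -0.73 and -1.91 come from other models. In the single-end coding part no dendrite library of Mical2 (0.192 to 0.662) reached the lowest soma library, although with deposited FPKM they overlapped. Pfn1 was less steady, with -3.43 in the paired-end and -0.60 in the single-end coding part. Its single-end values of 20.9, 4.47, 2.11 and 11.3 in dendrite overlapped those of 12.8, 20.9, 6.34 and 9.97 in soma. Only 79 bases of Pfn1 lie in the far part, where it was listed at 0 in all paired-end libraries. In the single-end run 3 immunoprecipitates were above 0 there. Fear conditioned dendrite 1 was at 1070 and fear conditioned soma 2 and home cage soma 2 at 394 and 4510, with a log2 difference of -2.68. As deposited these values were 969, 739 and 702. Pfn2 was near equal in the paired-end coding part (0.30) and negative in the single-end coding part (-0.90) and in the far part (-2.57 and -3.21). For Actb the coding part gave 0.44 and -0.44, and the far 3′ UTR -1.91 and -0.50.

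**Figure D2:**
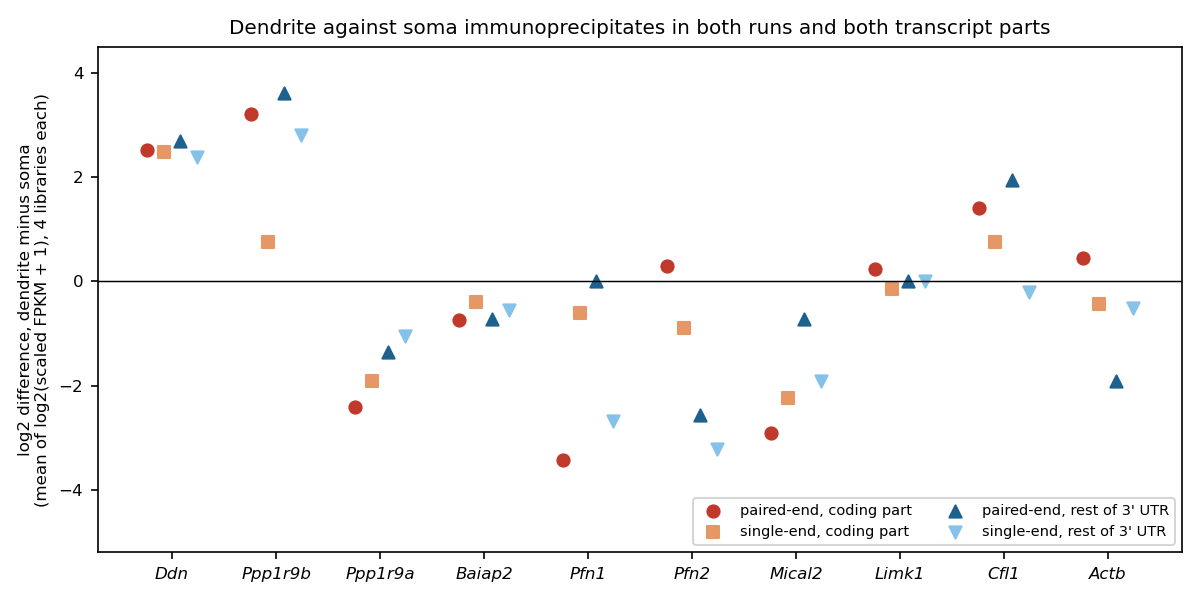
For each gene the log2 difference of dendrite minus soma immunoprecipitates (difference of the mean log2(scaled FPKM + 1) of 4 libraries each) is plotted for both runs and both transcript parts. All 4 points of Ddn and Ppp1r9b lie above 0 and all 4 of Ppp1r9a, Baiap2 and Mical2 below it, while those of Pfn2, Cfl1 and Actb fall on both sides.

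The coding part and the far part of a transcript carried unequal signal. Ddn had a higher FPKM in the rest of the 3′ UTR (1297 bases) than in the coding part (2443 bases) in all 11 paired-end libraries, with a ratio of 1.43 to 91.6 and a median of 5.55, and in 9 of 10 single-end libraries with coding signal (median 3.23). For Actb the far part was higher in 8 of 11 paired-end libraries (median ratio 3.88) and in 5 of 11 single-end ones (median 0.878). Ppp1r9b leaned to the coding part, with a median ratio of 0.436 and a higher far part in 2 of 11. Cfl1 had a median ratio of 1.15 in 9 paired-end libraries and 6.23 in 9 single-end ones. In the home cage soma immunoprecipitate 2 the Actb ratio reached 299, at a coding value of about 4.42 fragments.

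**Figure D3:**
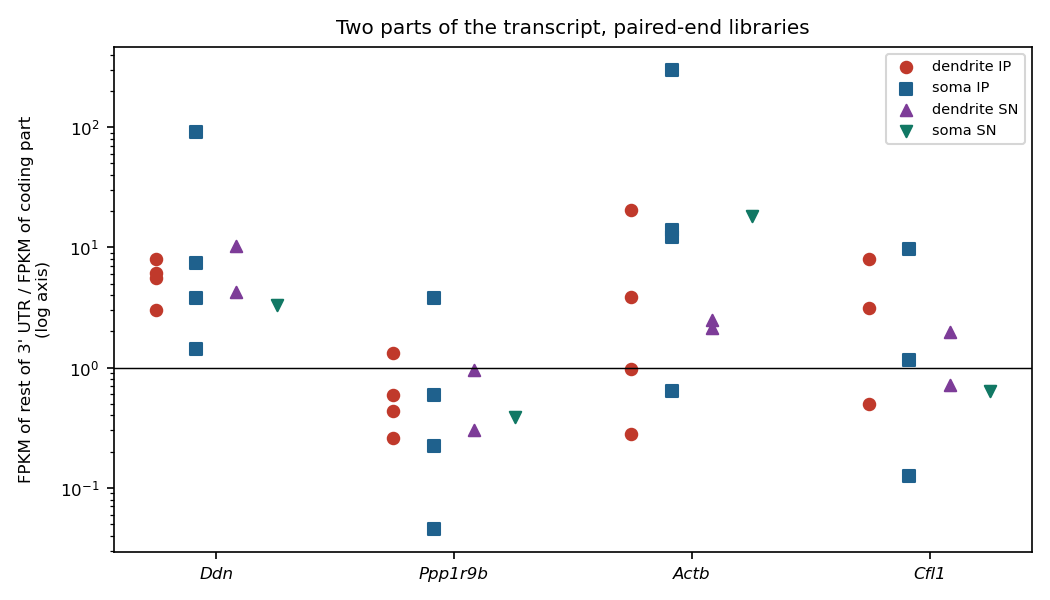
The vertical axis (log scale) gives, for each paired-end library with coding signal, the FPKM of the rest of the 3′ UTR divided by the FPKM of the coding part of 4 genes; colours mark dendrite and soma immunoprecipitates (IP) and supernatants (SN), and the line marks equal signal. All Ddn points lie above the line, and those of Ppp1r9b lie mostly below it.

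The training comparison asked which ribosome-bound mRNAs differ after fear conditioning, in which animals learn to associate a context with an aversive shock. No member passed, and by limma 0 of 2922 genes did in dendrite, so the share called was 0% in both directions, with 89 genes at an unadjusted p under 0.05. In soma it was also 0%, with 176 such genes. How many of all genes separate between the behaviours, with 2 libraries against 2, was not counted for Cfl1 or any gene named after it. Cfl1 had the largest member differences. In dendrite both fear conditioned libraries (31.1 and 35.1) were above both home cage libraries (0 and 7.58), a log2 difference of 3.54 (SE 1.53, limma adjusted p = 0.954, unadjusted p = 0.0379), which was 1.97 without home cage dendrite 1 and 1.07 in the single-end run. In soma both fear conditioned libraries (5.27 and 19.7) were again above both home cage ones (0 and 0.514), a log2 difference of 3.21 (SE 1.53, limma adjusted p = 0.611). The sign was the same in the single-end coding part, where the dendrite groups overlapped (3.02 and 20.5 in fear conditioned, 0 and 18.7 in home cage libraries), but the far 3′ UTR gave -2.18 in soma. Fear conditioned dendrite 2 alone stood at 388 in that far part, against 16.3 in fear conditioned dendrite 1 and 26.1 and 25.6 in the home cage.

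Pfn1 was also higher in both fear conditioned libraries at both sites, though how many of all genes separate so was not counted. In dendrite 5.21 and 3.62 stood against 0 and 0.679 (log2 difference 2.05, SE 1.47, limma adjusted p = 0.954), and in soma 93.9 and 53.1 against 17.8 and 5.67 (log2 difference 2.68, SE 1.47, limma adjusted p = 0.611). The single-end run gave 0.82 in dendrite, where the groups overlapped (20.9 and 4.47 against 2.11 and 11.3), and 0.95 in soma. Actb had 13.6 and 144 after fear conditioning and 12.1 and 4.43 in home cage dendrites (log2 difference 2.45, SE 1.93), which do not overlap but rest on 1 high library, with 0.73 without fear conditioned dendrite 2 and 4.05 without fear conditioned dendrite 1. In soma Actb overlapped, with 9.04 and 33.7 against 61.7 and 1.04 (log2 difference 0.72, SE 1.93).

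Dendrin and spinophilin overlapped between the behaviours. In dendrite their log2 differences were -0.62 (SE 1.49) for Ddn and -1.49 (SE 1.73) for Ppp1r9b, and in soma -0.04 and 0.46. Ppp1r9a had 0.33 in dendrite and 1.43 in soma (SE 1.42). Pfn2 had -0.72 and 1.15 (SE 1.21). Mical2 had 0.30 in dendrite, and in soma -1.28 (SE 1.28), where 5.38 and 4.52 lay below 6.05 and 28.3. The soma value of Mical2 was -0.20 without home cage soma 2, -2.26 without home cage soma 1 and 0.86 with deposited FPKM. The median over all genes was 0.08 in dendrite and 0.17 in soma; with FPKM as deposited it moved to 0.47 and 1.21, a shift to be held against any positive difference here. Home cage libraries were shallower (5.61 to 17.7 M fragments) than fear conditioned ones (18.6 to 29.9 M), and whether that bears on the values at 0 was not tested. Baiap2 and Limk1 had means under 1 and were not fitted. Baiap2 was listed at 0 in all 4 home cage immunoprecipitates and in 1 of 4 fear conditioned ones.

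The effect of training was also compared between the compartments. No gene differed (limma, 0 of 2922, 0%, with 84 at an unadjusted p under 0.05). Among members the differences of effects, dendrite minus soma, lay between -1.95 for Ppp1r9b (SE 2.45) and 1.72 for Actb (SE 2.73), with limma adjusted p-values of at least 0.729. The standard errors of 1.71 to 2.73 log2 units limit what these libraries can show.

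**Figure D4:**
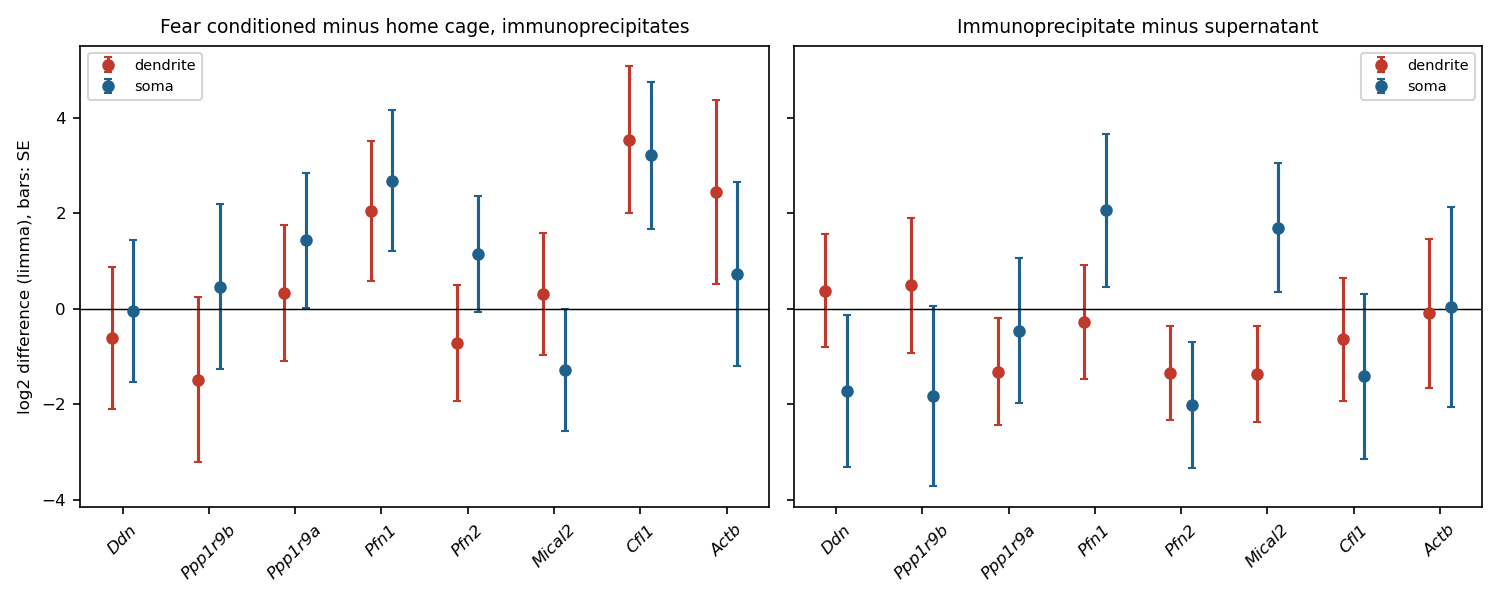
Log2 differences from limma, with bars of 1 standard error, for the 8 genes that could be fitted, in dendrite and in soma. On the left fear conditioned minus home cage immunoprecipitates are shown, with Cfl1 highest in both compartments (3.54 and 3.21). The right side shows immunoprecipitate minus supernatant, where Pfn1, Mical2 and, by a small margin, Actb are positive in soma and negative in dendrite.

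Immunoprecipitates were set against the supernatants to ask which mRNAs were held by tagged ribosomes. A supernatant is what the antibody left behind, so it can also hold RNA on untagged ribosomes. No member passed in dendrite, where 0% of 2938 genes were called higher and 0.0681% lower in the immunoprecipitate, nor in soma, with 0% both ways and 28 genes at an unadjusted p under 0.05. In dendrite Ddn averaged 16.8 ± 16.8 in immunoprecipitates (SD, n = 4) and 8.94 ± 3.59 in supernatants (SD, n = 2), a log2 difference of 0.37 (SE 1.18). Ppp1r9b averaged 130 ± 88.8 and 67.9 ± 31.5, a log2 difference of 0.49 (SE 1.41). Mical2 was lower in each dendrite immunoprecipitate (0 to 0.452) than in both supernatants (3.35 and 1.34), with a log2 difference of -1.38 (SE 1.01, limma adjusted p = 1). Ppp1r9a was likewise lower in each dendrite immunoprecipitate than in either supernatant, with -1.32 (SE 1.13). How many of all genes separate from the dendrite supernatants in this way was not counted, so nothing is read from it. Pfn2 had -1.34 (SE 0.99), Cfl1 -0.64, Pfn1 -0.28 and Actb -0.10.

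In soma, where 1 supernatant was available and its spread was taken from the other groups, Pfn1 and Mical2 had positive differences of 2.06 (SE 1.61) and 1.70 (SE 1.35), but of -1.61 and 0.18 in the single-end run. Each soma immunoprecipitate of Mical2 (4.52 to 28.3) exceeded the supernatant at 1.65. For Pfn1, 3 of 4 exceeded 11.7. Ddn was lower in all 4 soma immunoprecipitates (0.627 to 1.83) than in the supernatant at 5.23, with -1.72 (SE 1.59). So was Ppp1r9b (2.32 to 20.2 against 31.4), with -1.83 (SE 1.89). The share of all genes that lie wholly on 1 side of this supernatant was not counted, so nothing is read from these separations. Pfn2 had -2.02, Cfl1 -1.42, Ppp1r9a -0.46 and Actb 0.04. The limma adjusted p was 1.00 for each.

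Other genes of the actin system were read from a list of 80 symbols, of which 37 reached the minimum in the immunoprecipitates and 42 over all libraries. None passed in these fits. With no minimum, Pfn4 passed against the dendrite supernatant (-0.61, limma adjusted p = 0.0490) and Actn2 against the soma supernatant (-0.022, limma adjusted p = 0.0373). Of 16620 genes, 376 and 935 passed in these settings. Pfn4 and Actn2 lay at the floor, with mean scaled FPKM of 0.0196 and 0 in the immunoprecipitates. Without home cage soma 2, where a single home cage soma library is left, Pdxp had a training difference of -4.77 in soma. All were named after their values were seen. In soma 30 of the 37 had a positive training difference and 7 a negative one, with a median of 1.13 beside 0.17 for all genes (2.03 beside 1.21 with deposited FPKM). Without fear conditioned soma 2, 17 of 29 were positive and 12 negative, and the median was 0.43. In dendrite 21 were positive and 15 negative (median 0.25 beside 0.08), a direction lost without fear conditioned dendrite 1 or fear conditioned soma 2 (median 0 in each case) and turned among the 10 genes that averaged at least 5 (median -1.04). The difference of the training effects was positive for 9 and negative for 28 (median -1.41 beside -0.18). It was positive for 12 and negative for 17 without fear conditioned soma 2, and its median was -0.77 without home cage dendrite 2. Against the supernatant, dendrite immunoprecipitates had a negative difference for 33 of 42 (median -0.52 beside -0.11), and soma immunoprecipitates for 26 of 42 (median -0.25 beside 0.18, but 0.24 beside 0.43 with deposited FPKM). The 6 with the highest mean were Arpc5, a subunit of the filament-branching complex, the spectrin linker Add2, the tropomyosin Tpm3, the spine-apparatus protein Synpo, the gamma actin Actg1 and the capping protein Capzb. Tpm3 stood at 3.30 and 2.40 in fear conditioned and 36.6 and 30.3 in home cage dendrites (log2 difference -3.17, SE 1.50, limma adjusted p = 0.954). In soma Tpm3 was at 21.4 and 9.22 in fear conditioned and 5.01 and 0.473 in home cage libraries (log2 difference 2.34, SE 1.50), a value of 1.41 without home cage soma 2. In the single-end run the Tpm3 differences were -1.51 in dendrite and 0.54 in soma. Synpo was at 0.647, 0.485, 0.129 and 79.0 in dendrite, and so rested on home cage dendrite 2. Actg1 was at 4.86, 2.37, 0.286 and 1.53 in dendrite and 42.7, 12.7, 13.6 and 3.14 in soma, with an overlap of 1 library on each side. Between dendrite and soma, 1 of the 37, the drebrin gene Dbn1, lay lower in every dendrite library (log2 difference -2.28), beside 1.98% of 2922 genes. Nothing is read from this count. Dbn1, which encodes an actin-binding protein of spines, is named because it was the only one, after its values were seen.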

How the data were processed

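CA1 dendrites and cell bodies were dissected, their RNA amplified (Nugen Ovation RNA-Seq System V2) and made into TruSeq DNA libraries, per the labels' protocols. CASAVA 1.9, STAR 2.1.1d, Cufflinks 2.0.2 and the build mm9 appear in the submitters' processing notes, and their settings and any use of strand were not stated there. FPKM were deposited by the authors for each library, run and transcript part. The coding part runs from the transcript start through the coding sequence to at most 201 bases past the stop codon, and the far part is what remains of the 3′ UTR, per the file headers and the deposited annotation. The members and lists were chosen with earlier results of these data known.

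Library factors are medians, over the 765 genes above 0 in all 11 libraries, of a gene's ratio to its geometric mean. Genes averaging at least 1 were fitted as log2(scaled FPKM + 1), a scale that understates changes of low genes, with limma 3.58.1 (trend, R 4.3.3); tests were two-sided, and Benjamini-Hochberg adjusted p-values over every gene in the fit were held to 0.05. Training effects came from 8 immunoprecipitates in 4 groups. The comparison with supernatants used all 11 libraries, with behaviour as a covariate. Depth was estimated from the spacing of low FPKM of genes of at least 1500 bases with 1 model, where 89.9 to 97.4% of values lay within 0.15 of a whole number of reads; this rule was set after the values were seen. Fragments per gene follow from it and from the model with the longest coding sequence, and no counting interval was computed. Named genes are the 10 members and, of 80 other actin genes, those past the threshold or otherwise the 6 with the highest mean in immunoprecipitates. Rows of other names that overlap Ppp1r9a, Ddn and Limk1 stayed at or under 0.0001 FPKM. Alternatives were deposited FPKM, no minimum or one of 5, the single-end run, the far 3′ UTR, a pseudocount of 0.1, a replicate block and leaving out each library.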

Additional observations from a re-analysis of the deposited data

Results flagged for a closer look

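Within the 4 dendrite or the 4 soma immunoprecipitates, 7 of 20 sets of values held a library that stood far from the other 3 by Dixon's test; chance flags about 1 in 20 sets of normal values, a rate that does not hold for these skewed values with many zeros, so the number of sets is no sign of excess. Among low genes, Limk1 at 0.0606 in fear conditioned soma 1, and Baiap2 at 0.277 in fear conditioned dendrite 1, were the sole values above 0 in their sets, while Ppp1r9a at 0.666 in fear conditioned dendrite 1 exceeded values of at most 0.0760. Fear conditioned soma 2 was high for Baiap2 (4.74) and for Pfn2 (3.11). Mical2 was high in home cage soma 2 (28.3), the library whose summed FPKM is mostly Rpsa, while the soma libraries without it ranged from 4.52 to 6.05. It stood out only on scaled values, after division by the low factor of 0.211. The deposited FPKM was 5.98 there, beside 7.85 and 9.54 in fear conditioned soma and 3.07 in home cage soma 1. Actb was high in fear conditioned dendrite 2 (144), while the single-end run of that library gave 63.1 beside 5.93 to 43.3 in the other dendrite libraries.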

How the results depend on the processing

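No member passed in any fit or setting (smallest limma adjusted p = 0.193). The count of genes passing was 0 for training in dendrite in every setting run. For training in soma it was 1 with deposited FPKM and 0 to 167 on leaving out 1 library (56 without home cage soma 1, 167 without home cage soma 2). For the difference of effects it was 1 in the far 3′ UTR. For dendrite immunoprecipitate minus supernatant it was 2, and 376 with no minimum, 10 single-end, 1 with a minimum of 5, 1 with a pseudocount of 0.1, 0 in the far 3′ UTR, 1 with the replicate block and 0 to 2 on leaving out 1 library. For soma immunoprecipitate minus supernatant it was 935 with no minimum, 10 single-end, 1 each with a minimum of 5, in the far 3′ UTR and with a pseudocount of 0.1, and 0 on leaving out 1 library; without the soma supernatant it could not be fitted. Genes whose dendrite and soma groups did not overlap numbered 113 (55 higher, 58 lower), 190 with no minimum, 36 with a minimum of 5 and 107 to 313 on leaving out 1 library, with 94 higher and 14 lower on deposited FPKM and 35 higher and 117 lower single-end. The cause of these changes was not tested. Same-numbered libraries did not deviate together (r of -0.014 to 0.059 across genes), and the labels do not say whether libraries of 1 number or name share animals; the fits treat the 8 immunoprecipitates as independent. The replicate block gave 0 genes for training at either site.

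Of 684 recomputed member differences, 64 had the opposite sign; those for the difference of effects and for soma supernatants were added after the data were seen. Training in dendrite gave Ddn 0.13 (deposited FPKM) and -2.07 to 0.76 on leaving out 1 library, Ppp1r9a -0.38 (far 3′ UTR) and -0.027 to 0.65, Ppp1r9b -3.30 to 0.21 and Pfn2 1.23 (far 3′ UTR). Training in soma gave Ddn 0.98 (deposited FPKM), 0.31 (single-end), 2.19 (far 3′ UTR) and -0.39 to 0.35 on leaving out 1 library, Ppp1r9a -0.056 (far 3′ UTR) and -0.42 to 3.47, Ppp1r9b -0.73 (single-end), -0.49 (far 3′ UTR) and -0.82 to 1.896, Mical2 0.86 (deposited FPKM), Cfl1 -2.18 (far 3′ UTR) and Actb -1.70 to 3.30. The difference of effects gave Pfn1 1.19 (pseudocount of 0.1) and -1.35 to 0.24, Pfn2 0.19 (far 3′ UTR), Mical2 -0.24 (deposited FPKM), Cfl1 -1.58 (single-end), -0.14 (pseudocount of 0.1) and -1.22 to 1.95, Ddn -2.01 to 0.80, Ppp1r9a -3.12 to 0.79 and Actb -0.85 to 4.13. Dendrite immunoprecipitate minus supernatant gave Ddn -0.88 (single-end) and -0.13 to 1.00, Ppp1r9b -1.16 (single-end) and -0.25 to 1.37, Pfn1 0.62 (single-end) and -1.76 to 1.14, Cfl1 1.77 (far 3′ UTR), 0.056 (replicate block) and -2.03 to 0.70, and Actb 0.070 (deposited FPKM), 0.49 (far 3′ UTR) and -0.97 to 0.56. Soma immunoprecipitate minus supernatant gave Ddn 0.16 (far 3′ UTR), Ppp1r9a 0.13 (deposited FPKM) and -1.17 to 0.059, Pfn1 -1.61 (single-end), Pfn2 0.89 (far 3′ UTR), and Actb -0.50 (single-end), -0.31 (far 3′ UTR), -0.060 (pseudocount of 0.1) and -0.58 to 0.73.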
